A study of Homo sapiens with 9 samples.

Results

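The genes described here encode the nuclear pore complex and the factors that carry cargo through it. They were chosen by symbol, and the rule used no measured value, although earlier results of these data were known. Every NUP, KPNA, KPNB, IPO or TNPO symbol that ends in a number (with an optional letter ending) was taken, together with *NDC1*, *TPR*, *RANBP2*, *AAAS*, *SEH1L*, *RAN*, *RANGAP1*, *RCC1*, *XPO1* and *CSE1L*, which gave 50 of the 19918 genes counted. The libraries were made from VCaP, a human prostate cancer line in long use, 72 h after reverse transfection with 100 pmol of siRNA by RNAiMAX. Both si025 and si033 target exon 1 of the long non-coding RNA *IGF1R-AS1*, and cells given either carry the genotype label IGF1R-AS1 knockdown, while the cells given a control siRNA are labelled WT. Each of the 3 groups held 3 libraries that the sample titles number as replicates. The study calls its replicates biological without saying whether they were separate cultures, so the *p* values measure the spread between these libraries, which may be partly technical.

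The nuclear pore complex is a ring-shaped channel through the nuclear envelope, built from many copies of proteins called nucleoporins. Outer and inner rings form its scaffold, membrane proteins anchor it, and nucleoporins with phenylalanine-glycine repeats fill the central channel. Importins and exportins carry cargo through that channel, and the small GTPase Ran, bound to GTP inside the nucleus and to GDP in the cytoplasm, tells them where to load and release. Proliferating cells assemble new pores in every cycle.

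Library totals ranged from 11649811 to 28492259 counts. Values below are CPM, counts scaled to a common library size after TMM normalisation, and a gene was called when its adjusted *p* value in edgeR's quasi-likelihood test over all 12810 genes tested was under 0.05. Replicate pairs differed by more than counting noise, most so those with si025 replicate 2. All 10 luminal prostate markers were detected, although *KLK3*, which encodes PSA, was low at 13.4 CPM in the control. Their summed level lay between 8293 and 8523 CPM in the control, 10048 and 10405 CPM with si025, and 7010 and 7362 CPM with si033. The summed level of 5 leukocyte markers was at most 3.04 CPM and that of 4 endothelial markers at most 2.34 CPM in any library. Of the 6 fibroblast markers, *LUM* made up most of a sum of 16.7 to 19.0 CPM in the control, 36.7 to 44.1 CPM with si025 and 8.90 to 11.5 CPM with si033, while *COL1A2* was at 0 in the control. The defining markers *CD3E* of T cells and *CDH5* of endothelium were at 0 in all 9 libraries. The fibroblast marker *COL1A1* and the endothelial *VWF* averaged 1.73 and 0.841 CPM in the control and were called higher with si025 (log2 fold changes 1.07 and 0.84). The leukocyte markers *CD14* and *CD68* passed the expression filter and were called with neither siRNA. The part of these cell markers in the results was not tested.

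Of the 50 genes, 48 were expressed highly enough to be tested. *KPNA7*, an importin alpha of the early embryo, had no count outside si025, where 2 libraries held 1 count each. *NUP210L*, a relative of the pore membrane protein NUP210, had between 0 and 5 counts per library. Together the 50 genes took between 1.02% and 1.03% of all counts in the control libraries. This share was 0.819% to 0.857% with si025 and 0.909% to 0.932% with si033, so the 3 groups did not overlap.

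Promoter sequences were examined first, because many of these genes moved together. The sequences come from RefSeq on GRCh38.p14 and span 250 bases before to 50 bases after an annotated start, and 44 of the 48 tested genes had at least 1, giving 56 promoters. The word CACGTG, the E-box that MYC with its partner MAX can bind, was searched on both strands, where it reads the same. It stood in 9 of the 56 promoters (16.1%), in 9.02% of the 14637 promoters of tested genes and in 7.26% of all 35116 promoters. The 5 promoters printed here belong to *RCC1*, *RAN* and *IPO7*, which hold the word, and to *KPNA2*, which fell with both siRNAs and does not hold it. *RCC1* has 2, of which only that at an internal start holds the word, while that at the start of the gene as counted does not. Capitals mark CACGTG.
RCC1, internal start (chr1:28517976-28518275, plus strand): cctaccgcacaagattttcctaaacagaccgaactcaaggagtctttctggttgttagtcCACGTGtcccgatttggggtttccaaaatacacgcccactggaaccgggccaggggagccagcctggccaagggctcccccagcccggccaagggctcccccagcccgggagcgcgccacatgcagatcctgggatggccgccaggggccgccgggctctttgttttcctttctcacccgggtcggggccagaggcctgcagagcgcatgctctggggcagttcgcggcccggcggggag
RCC1, gene start (chr1:28505793-28506092, plus strand): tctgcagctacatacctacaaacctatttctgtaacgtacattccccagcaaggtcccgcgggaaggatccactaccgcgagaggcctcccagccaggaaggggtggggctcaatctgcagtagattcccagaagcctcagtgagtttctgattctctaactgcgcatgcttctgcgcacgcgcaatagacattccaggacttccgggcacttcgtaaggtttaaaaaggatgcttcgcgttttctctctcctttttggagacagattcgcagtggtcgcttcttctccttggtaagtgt
RAN (chr12:130871816-130872115, plus strand): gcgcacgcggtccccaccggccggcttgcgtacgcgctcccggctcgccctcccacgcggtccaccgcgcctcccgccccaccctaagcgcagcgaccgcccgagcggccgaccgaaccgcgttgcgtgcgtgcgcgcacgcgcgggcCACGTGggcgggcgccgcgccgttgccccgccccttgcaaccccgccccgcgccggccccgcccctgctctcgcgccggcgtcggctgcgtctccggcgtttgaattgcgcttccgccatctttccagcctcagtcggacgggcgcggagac
IPO7 (chr11:9384402-9384701, plus strand): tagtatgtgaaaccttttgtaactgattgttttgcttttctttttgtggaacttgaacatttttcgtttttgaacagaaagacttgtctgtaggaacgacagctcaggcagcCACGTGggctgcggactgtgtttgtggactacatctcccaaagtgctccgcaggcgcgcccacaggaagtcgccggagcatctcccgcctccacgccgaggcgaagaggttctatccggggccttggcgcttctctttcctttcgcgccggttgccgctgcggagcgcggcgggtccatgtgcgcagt
KPNA2 (chr17:68035485-68035784, plus strand): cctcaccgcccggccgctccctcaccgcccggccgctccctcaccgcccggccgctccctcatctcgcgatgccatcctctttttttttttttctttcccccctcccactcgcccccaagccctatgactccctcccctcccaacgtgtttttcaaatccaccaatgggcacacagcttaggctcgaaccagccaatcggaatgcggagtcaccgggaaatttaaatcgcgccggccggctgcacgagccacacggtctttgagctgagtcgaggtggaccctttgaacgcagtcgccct
The word began 190 bases before the internal start of *RCC1*, 102 before that of *RAN* and 138 before that of *IPO7*. The other holders were *IPO4*, *KPNA3*, *NUP188*, *NUP50*, *TNPO2* and *XPO1*, and of these *NUP50*, *TNPO2* and *XPO1* also had another promoter without it. The other words, each searched on both strands, were TTCCCGC, which resembles the site of E2F factors, TTGGCGC, another E2F-like word, and GCATGCG, which resembles the site of NRF1. They stood in 12 (21.4%), 3 (5.36%) and 7 (12.5%) of the 56 promoters, against 9.48%, 4.48% and 5.53% of the promoters of tested genes. A match is a description of the letters in these windows and does not show that a factor binds there.

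In control cells the 8 highest levels were those of transport receptors and Ran cycle genes. Levels between genes are given as control CPM per kilobase of exon (mean ± SD, n = 3). *RAN*, the GTPase itself, had the highest level at 255 ± 6.75, followed by *KPNB1* (importin beta 1) at 214 ± 3.49, *CSE1L*, which returns importin alpha to the cytoplasm, at 177 ± 5.34, *KPNA2* (importin alpha 1) at 138 ± 4.18 and *RCC1*, the chromatin-bound exchange factor that loads Ran with GTP, at 117 ± 2.34. The libraries of each of these genes lay apart from those of the next gene in the order. *XPO1* (exportin 1) at 103 ± 1.85 and *IPO7* at 101 ± 2.11 overlapped each other. *NUP205*, a scaffold protein of the inner ring, was the highest nucleoporin at 61.3 ± 1.82. From *AAAS* at 35.1 ± 1.67 down to *TNPO1* at 24.1 ± 0.432, each gene's libraries overlapped those of its neighbour. The lowest levels were those of *NUP43* at 8.59 ± 0.268, *KPNA5* at 5.30 ± 0.328 and *NUP62CL*, a relative of the channel protein NUP62, at 0.812 ± 0.117.

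**Figure D1:**
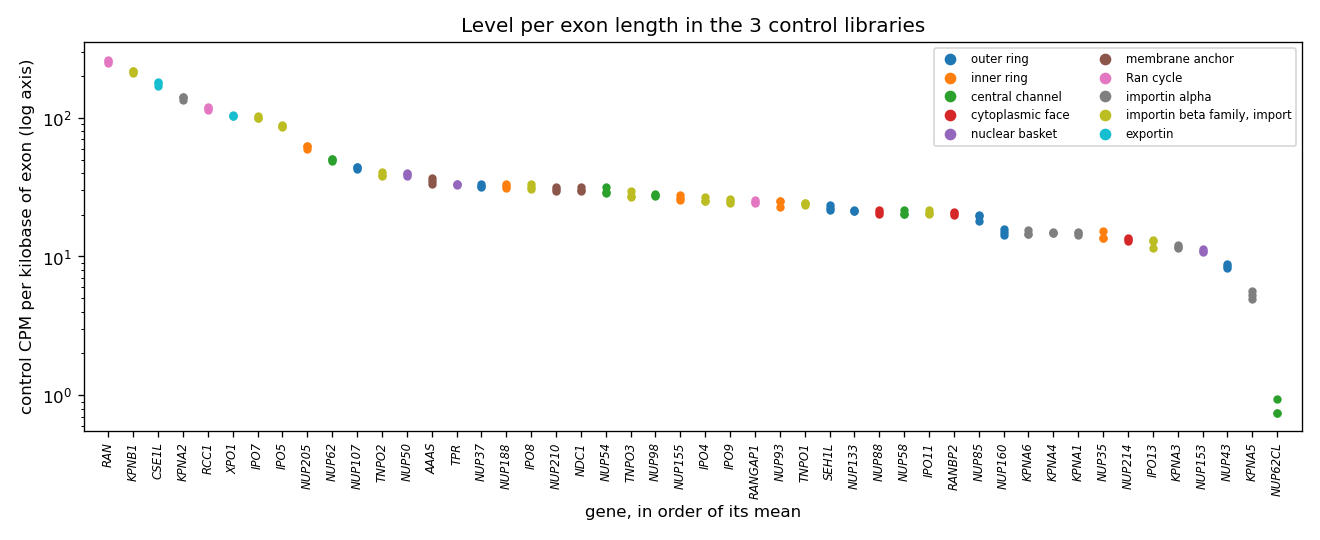
Level of the 48 tested genes in the 3 control libraries (points), as CPM per kilobase of exon on a log axis, ordered by the mean and coloured by role. *RAN*, *KPNB1* and *CSE1L* stand at the top with 255, 214 and 177, and *NUP62CL* stands alone at 0.812.

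Next, each siRNA was compared with the control. With si025, 41 of the 48 genes fell and 3 rose. Among all genes tested, 61.7% were called, 28.8% lower and 32.9% higher. The median log2 fold change of the 48 genes was -0.33, against 0.02 for all genes. In 42 of the 48 every si025 library lay below every control library, which held for 30.7% of all genes. The 3 genes that rose were *KPNA5*, *IPO13* and *NUP43*. Those not called were *NUP62*, *KPNA3*, *KPNA4* and *NUP188*.

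With si033, 33 of the 48 genes fell and 4 rose (*KPNA1*, *IPO13*, *NUP93* and *NUP43*). Of all genes tested, 54.8% were called, 27.8% lower and 26.9% higher. The median log2 fold change was -0.22, against 0.00 for all genes. In 34 of the 48 genes every si033 library lay below every control library, against 30.2% of all genes. The comparisons share the control libraries and are therefore not independent of each other.

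In all, 30 of the 48 genes (62.5%) fell with both siRNAs, compared with 14.6% of all genes tested. *IPO13* and *NUP43* rose with both, as did 15.1% of all genes. *KPNA1* and *NUP93* fell with si025 and rose with si033, and 8.39% of all genes moved in opposite directions in this way or the reverse. A further 9 genes were called lower only with si025, namely *RAN*, *XPO1*, *KPNB1*, *IPO5*, *IPO8*, *TNPO1*, *NUP88*, *NUP35* and *NUP85*. In the direct comparison of the siRNAs 8 of these 9 were also lower with si025 than with si033, and *IPO8* was not called. *NUP62*, *KPNA3* and *NUP188* were called lower only with si033, *KPNA5* was called higher only with si025, and *KPNA4* was called with neither. In the direct comparison *KPNA3* and *NUP188* were higher with si025 than with si033, although most alternatives lost the *NUP188* call. *NUP62* was not called there, and all its si025 libraries also lay below the control. A test against a fold of 1.2 (glmTreat in edgeR) left 23 genes called with si025, 12 with si033 and 11 between the siRNAs, and single calls lost to it are not named again below.

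**Figure D2:**
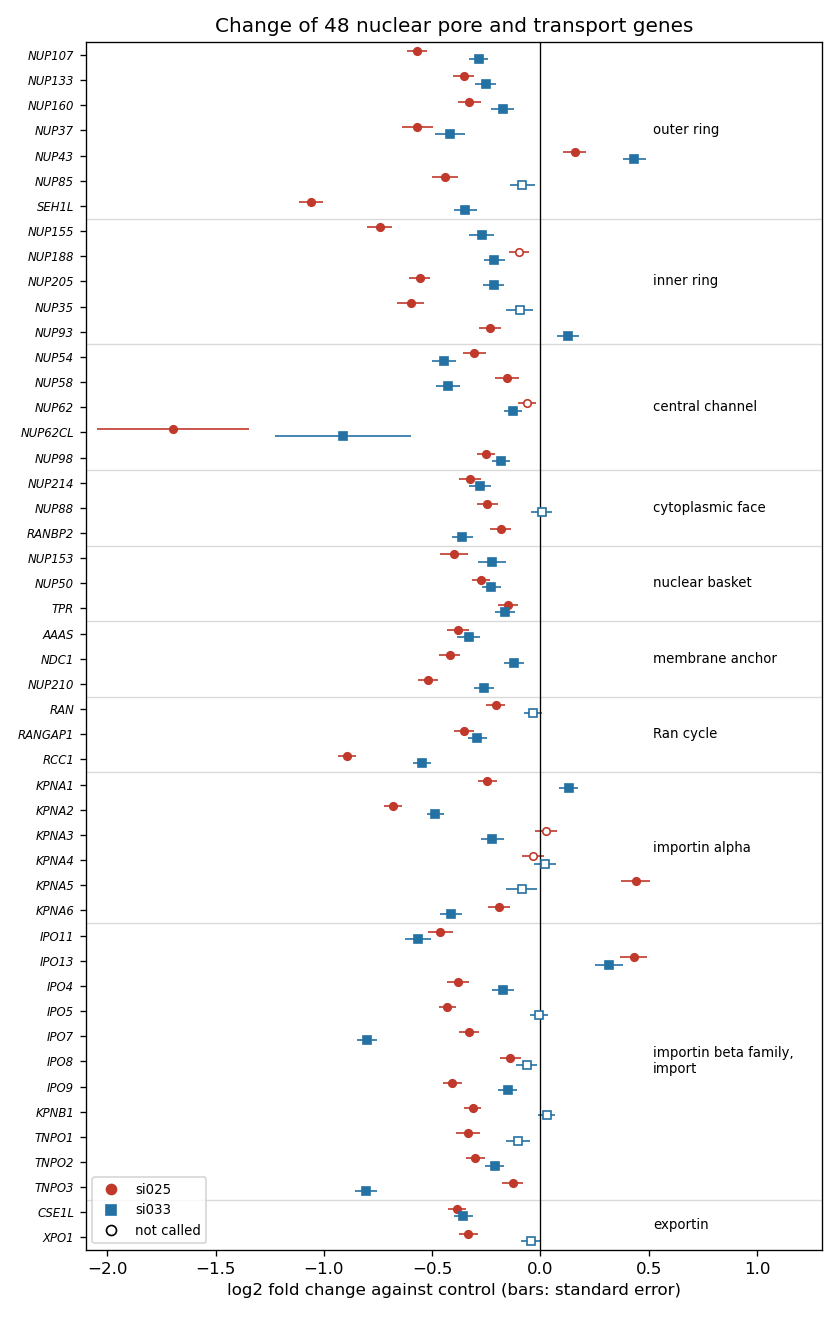
Log2 fold change against control (horizontal axis, bars show the standard error) of the 48 tested genes, grouped by role, with red circles for si025 and blue squares for si033. Filled symbols mark called genes. Most symbols lie left of 0, *IPO13* and *NUP43* lie right of it with both siRNAs, and *NUP62CL* has the widest bars.

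The Ran cycle was lower throughout with si025, and *RCC1* changed most. *RCC1* (chr1:28505943-28539196, plus strand, hg38), whose promoters are printed above, had 347, 360 and 358 CPM in the control, 183, 197 and 192 with si025 and 247, 246 and 237 with si033. The 3 groups did not overlap, and si025 stood lowest. On the log2 scale the gene changed by -0.89 (SE 0.043, adjusted *p* = 3.43e-14) with si025 and -0.55 (SE 0.042, adjusted *p* = 1.81e-10) with si033. *RANGAP1*, the cytoplasmic activator that makes Ran hydrolyse GTP, had 213, 206 and 206 CPM in the control, 168, 162 and 159 with si025 and 179, 163 and 168 with si033. All knockdown libraries lay below all control libraries, and the gene changed by -0.35 with si025 (adjusted *p* = 4.68e-07) and by -0.29 with si033 (adjusted *p* = 1.02e-05) on the log2 scale. *RAN* (chr12:130871879-130877678, plus strand, hg38) had 683, 708 and 719 CPM in the control, 587, 635 and 605 with si025 and 694, 708 and 663 with si033. It was lower with si025 by 0.21 (log2 fold change -0.21, adjusted *p* = 0.00016), whereas the si033 libraries overlapped the control (-0.03, SE 0.042, adjusted *p* = 0.53). *RAN* has processed pseudogenes, so its counts are less certain.

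Of the exportins, *CSE1L* fell with both siRNAs and *XPO1* with si025. *CSE1L* (chr20:49046246-49096960, plus strand, hg38) had 649, 680 and 687 CPM in the control, 516, 503 and 524 with si025 and 502, 554 and 520 with si033. The knockdown groups overlapped each other and lay below the control, with log2 fold changes of -0.39 (SE 0.043, adjusted *p* = 4.7e-08) and -0.36 (SE 0.043, adjusted *p* = 2.33e-07). *XPO1*, the main exporter of proteins with leucine-rich export signals, had 612, 613 and 632 CPM in the control, 504, 481 and 491 with si025 and 556, 627 and 617 with si033. It fell with si025 (-0.33, SE 0.044, adjusted *p* = 8.56e-07), while with si033 the log2 fold change was -0.05 (SE 0.044, adjusted *p* = 0.401), with replicate 1 of si033 below the control range and the others inside it.

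The importin alphas, the adaptors that recognise the classical nuclear localisation signal, moved in different directions. Of the 6 tested, 3 fell and 1 rose with each siRNA, but these were not the same genes. *KPNA2* (chr17:68035602-68046859, plus strand, hg38) fell most, from 362, 381 and 382 CPM in the control to 230, 235 and 237 with si025 and 269, 270 and 265 with si033. No groups overlapped, and the log2 fold changes were -0.68 (SE 0.041, adjusted *p* = 1.43e-12) and -0.49 (SE 0.041, adjusted *p* = 6.63e-10). *KPNA2* also has processed pseudogenes. *KPNA6* (importin alpha 7) had 121, 114 and 113 CPM in the control, 107, 97.7 and 101 with si025 and 86.6, 82.1 and 91 with si033. It fell with both siRNAs, by 0.19 and by 0.41 on the log2 scale (adjusted *p* = 0.00266 and 5.14e-07), and the groups were ordered without overlap.

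*KPNA1* (importin alpha 5) was called in opposite directions. It had 126, 131 and 129 CPM in the control, 107, 108 and 111 with si025 and 139, 143 and 142 with si033. The groups did not overlap, with log2 fold changes of -0.24 (SE 0.044, adjusted *p* = 4.73e-05) and 0.13 (SE 0.044, adjusted *p* = 0.0142). The si033 call was lost without si033 replicate 3. *KPNA3* (importin alpha 4) had 53.7, 54.3 and 56.5 CPM in the control, 57.2, 55.6 and 55.2 with si025 and 46.8, 46.6 and 47.8 with si033. It fell only with si033 by these calls (-0.22, adjusted *p* = 0.000964), with a value of 0.02 for si025 (SE 0.051, adjusted *p* = 0.701), and the direct difference between the siRNAs was called (0.25, adjusted *p* = 0.000254).

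*KPNA5* (importin alpha 6) moved the other way round. It had 30.5, 28.5 and 32.3 CPM in the control, 40.3, 39 and 44.8 with si025 and 26.5, 30.2 and 29.4 with si033. All si025 libraries stood above all others, giving a log2 fold change of 0.44 (SE 0.068, adjusted *p* = 6.8e-06), against -0.09 (SE 0.072, adjusted *p* = 0.314) for si033. *KPNA4* (importin alpha 3) had 132, 133 and 134 CPM in the control, 132, 124 and 133 with si025 and 130, 146 and 130 with si033, and the 3 groups overlapped. On the log2 scale it changed by -0.04 with si025 (SE 0.05, adjusted *p* = 0.552) and 0.02 with si033 (SE 0.05, adjusted *p* = 0.746).

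Of the 11 importin beta family members that work in import, 10 fell and 1 rose with si025, whereas 6 fell and 1 rose with si033. *IPO7* (chr11:9384622-9448127, plus strand, hg38), which imports ribosomal proteins and histone H1, had 617, 622 and 641 CPM in the control, 506, 467 and 522 with si025 and 343, 368 and 367 with si033. The si033 libraries were lowest and no groups overlapped. On the log2 scale the gene changed by -0.33 (SE 0.045, adjusted *p* = 1.1e-06) with si025 and -0.80 (SE 0.045, adjusted *p* = 8.04e-13) with si033. *TNPO3* (chr7:128954180-129055173, minus strand, hg38), the import receptor of SR splicing factors, had 126, 140 and 129 CPM in the control, 122, 116 and 123 with si025 and 72.8, 75.3 and 77 with si033. It fell by 0.80 on the log2 scale with si033 (SE 0.051, adjusted *p* = 5.06e-12) and by 0.13 with si025 (SE 0.048, adjusted *p* = 0.0257), and the latter call was lost with upper quartile factors, without si025 replicate 2 or without control replicate 2.

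*IPO11* had 95.9, 93.7 and 99.5 CPM in the control, 77.2, 64.5 and 69.5 with si025 and 61.4, 69.5 and 64.9 with si033. The knockdown groups overlapped each other below the control, at -0.46 (SE 0.059, adjusted *p* = 4.86e-07) and -0.56 (SE 0.06, adjusted *p* = 4.01e-08). *IPO13* (chr1:43946806-43968022, plus strand, hg38), which can both import and export cargo, was the only one of the 11 to rise, and it did so with both siRNAs. It had 51.9, 53.3 and 46.5 CPM in the control, 71.1, 67.4 and 64.9 with si025 and 67.7, 57.6 and 62.3 with si033. All knockdown libraries lay above the control, with log2 fold changes of 0.43 (SE 0.064, adjusted *p* = 3.7e-06) and 0.32 (SE 0.065, adjusted *p* = 0.000237).

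*KPNB1*, the partner of the importin alphas, and *IPO5*, an importer of ribosomal proteins and histones, were lower only with si025 by these calls. *KPNB1* averaged 954 ± 15.6 CPM in the control, 768 ± 29.8 with si025 and 973 ± 8.45 with si033 (SD, n = 3). *IPO5* averaged 542 ± 8.47, 403 ± 5.19 and 540 ± 24 CPM in the same order. Their log2 fold changes were -0.31 and -0.43 with si025, and 0.03 (SE 0.039) and -0.01 (SE 0.041) with si033. *TNPO1* (-0.34), the receptor of proteins with PY-type signals, and *IPO8* (-0.14) also fell with si025, and with si033 their values of -0.11 and -0.06 did not pass. The si025 call of *IPO8* was lost when replicate 2 of si025 or replicate 3 of the control was left out. The others fell with both siRNAs, *IPO9* by 0.41 and 0.15, *IPO4* by 0.38 and 0.17, and *TNPO2* by 0.30 and 0.21 on the log2 scale. The si033 call of *IPO4* was lost when replicate 2 of the control was left out.

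**Figure D3:**
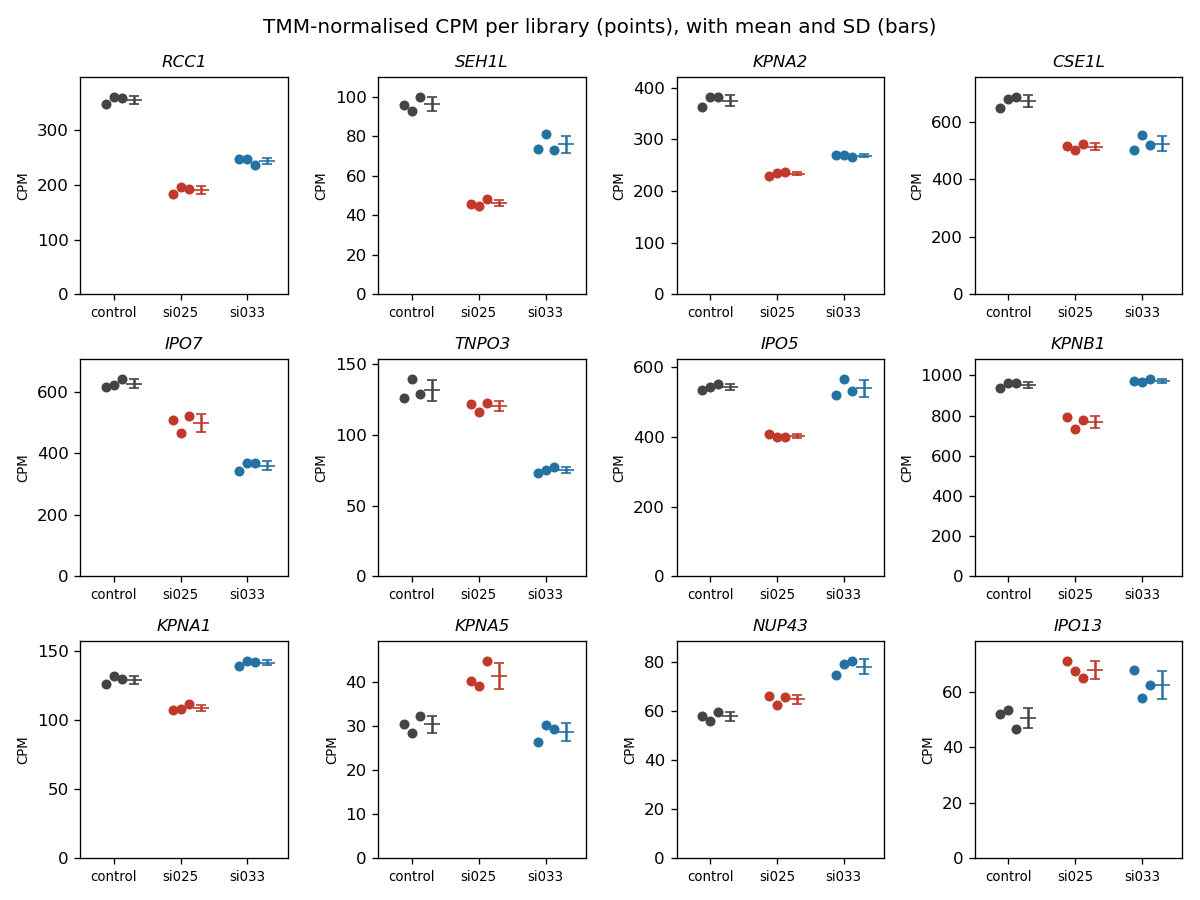
TMM-normalised CPM in each library (points) with the mean and SD (bars) for 12 genes, for control, si025 and si033, on axes that start at 0. *RCC1*, *SEH1L*, *KPNA2* and *CSE1L* were below control with both siRNAs, *IPO7* and *TNPO3* were lowest with si033, *IPO5* and *KPNB1* were lower with si025, and *IPO13* and *NUP43* were higher with both.

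In the outer ring, the Y-shaped scaffold complex, 6 of 7 genes fell and 1 rose with si025, and 5 fell and 1 rose with si033. *SEH1L* (chr18:12947984-12987665, plus strand, hg38), which also serves in the GATOR2 complex of amino acid sensing, had 96, 92.9 and 100 CPM in the control, 46, 44.7 and 48.1 with si025 and 73.8, 81.2 and 73.3 with si033. The 3 groups did not overlap. On the log2 scale the gene changed by -1.06 (SE 0.055, adjusted *p* = 1.56e-13) with si025 and -0.35 (SE 0.053, adjusted *p* = 7.36e-06) with si033. *NUP43* (chr6:149724315-149746572, minus strand, hg38) alone rose among these 7 outer ring genes, and it did so with both siRNAs. It had 57.7, 55.9 and 59.5 CPM in the control, 66, 62.4 and 65.4 with si025 and 74.5, 79 and 80.2 with si033. Its groups did not overlap either, at 0.16 (SE 0.053, adjusted *p* = 0.0122) and 0.43 (SE 0.052, adjusted *p* = 2.5e-07). The first of these calls was lost without control replicate 2. Of the remaining scaffold genes, *NUP107* fell by 0.57 and 0.29, *NUP37* by 0.57 and 0.42, *NUP133* by 0.35 and 0.25 and *NUP160* by 0.33 and 0.18 on the log2 scale, the si033 call of *NUP160* being lost without replicate 2 of the control. *NUP85* fell by 0.44 with si025 and stood at -0.08 (adjusted *p* = 0.238) with si033.

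In the inner ring 4 of 5 genes fell with si025, and with si033 3 fell and 1 rose. *NUP155* had 144, 133 and 138 CPM in the control, 88.8, 73.7 and 86.3 with si025 and 109, 119 and 115 with si033. *NUP35*, which binds the membrane, had 36.1, 36 and 40.3 CPM in the control, 24.5, 25.5 and 24.7 with si025 and 34.5, 37 and 34.8 with si033. *NUP155* was ordered without overlap (-0.74, adjusted *p* = 1.93e-10, and -0.27, adjusted *p* = 0.000393), whereas *NUP35* was apart from the control only with si025 (-0.60, adjusted *p* = 2.34e-08, against -0.10, adjusted *p* = 0.191). *NUP93*, which links the ring to the channel, had 85.3, 94.4 and 93.8 CPM in the control, 76.5, 80.6 and 76.4 with si025 and 97.7, 102 and 99.4 with si033. Its groups did not overlap, with -0.23 (adjusted *p* = 0.00041) and 0.13 (adjusted *p* = 0.0365), and the latter call was lost in DESeq2, without the filter on low counts, and when replicate 2 or 3 of si033 or replicate 1 of the control was left out. *NUP205* fell by 0.56 and 0.22. *NUP188* fell with si033 (-0.21, adjusted *p* = 0.000642) and stood at -0.10 (adjusted *p* = 0.0745) with si025. It was called lower with si025 under 5 of the 18 alternatives, DESeq2 among them.

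All 5 genes of the central channel fell with si033 and 4 of them with si025. *NUP58* fell by 0.16 with si025 and by 0.43 with si033, and *NUP54*, its partner in the channel, by 0.31 and 0.45 on the log2 scale. The si025 call of *NUP58* was lost when replicate 2 of si025 or replicate 3 of the control was left out. *NUP98*, which also occurs inside the nucleus, fell by 0.25 and 0.18. *NUP62* averaged 181 ± 2.81 CPM in the control, 173 ± 2.65 with si025 and 165 ± 1.84 with si033, with a log2 fold change of -0.06 for si025 (adjusted *p* = 0.19) and -0.13 for si033 (adjusted *p* = 0.0119), and the si033 call was lost without control replicate 3. *NUP62CL* had 1.31, 1.67 and 1.31 CPM in the control, 0.234, 0.744 and 0.265 with si025 and 0.577, 0.542 and 0.932 with si033. Every knockdown library lay below the control (-1.70, SE 0.35, adjusted *p* = 0.00022, and -0.91, SE 0.32, adjusted *p* = 0.0178), but these are between 3 and 34 counts per library, and the si033 call was lost in DESeq2 and without si033 replicate 2 or control replicate 2.

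At the periphery of the pore, the groups of the cytoplasmic face, nuclear basket and membrane anchors held 9 tested genes, and all of them fell with si025. On the cytoplasmic face *NUP214* fell by 0.33 and 0.28 with si025 and si033. *RANBP2*, the large filament protein that docks RanGAP1, averaged 308 ± 8.34 CPM in the control, 271 ± 18.1 with si025 and 240 ± 6.07 with si033 (log2 fold changes -0.18 and -0.36), and it shares sequence with the near-identical RGPD genes. The exons counted under its symbol span chr2:108719446-109842301 (plus strand, hg38). Whether they all belong to *RANBP2* itself was not checked, so its values are less certain. *NUP88* fell by 0.25 with si025 and was at 0.01 (SE 0.048, adjusted *p* = 0.921) with si033. In the basket *NUP153* fell by 0.40 and 0.22, *NUP50* by 0.27 and 0.23 and *TPR* by 0.15 and 0.16, the si025 call of *TPR* being lost without si025 replicate 2. Of the membrane anchors, *NUP210* fell by 0.52 and 0.26 and *NDC1* by 0.42 and 0.12. *AAAS*, mutated in triple A syndrome and only grouped with these anchors here, fell by 0.38 and 0.33. The si033 call of *NDC1* was lost under 7 of the 18 alternatives, among them leaving out replicate 1 or 3 of si033 or of the control.

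**Figure D4:**
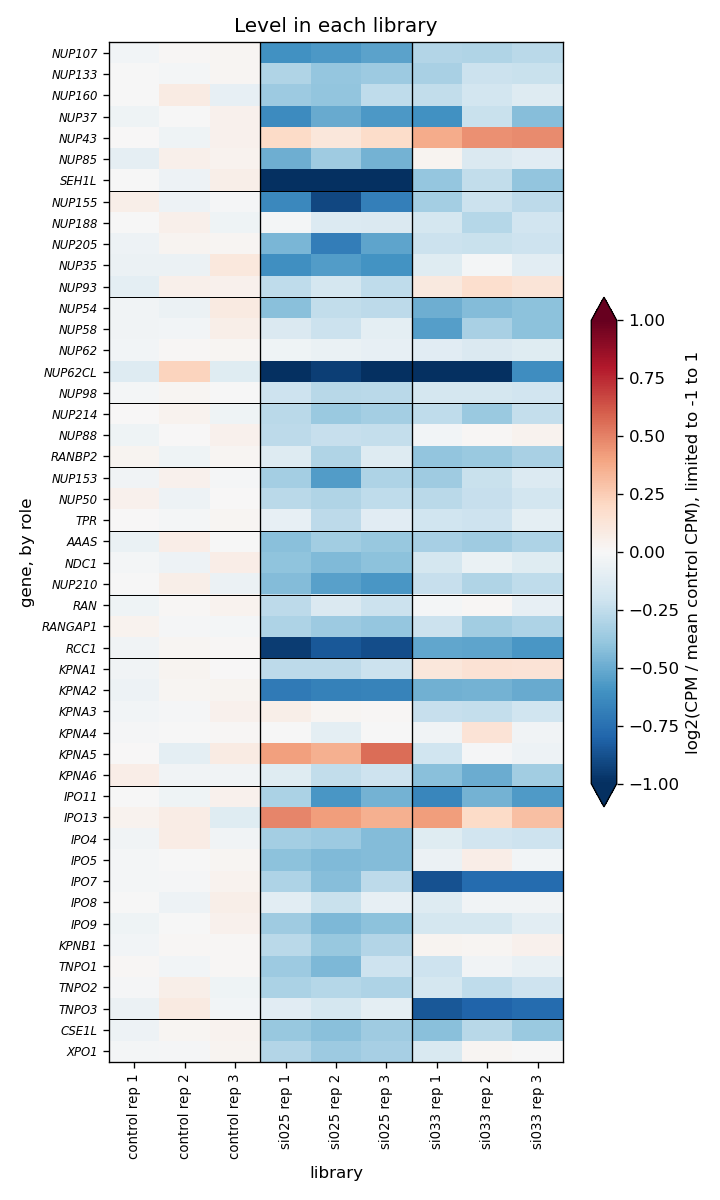
Level of the 48 tested genes (rows, by role) in the 9 libraries (columns), as log2 of CPM over the mean control CPM, with colours limited to -1 to 1. The 3 si025 columns are blue for most genes and the si033 columns are paler. The rows of *NUP62CL*, *IPO7* and *TNPO3* are among the darkest with si033.

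Direct comparison of the siRNAs gave 23 genes lower and 9 higher with si025 than with si033, and 16 that were not called. Of all genes tested, 60.9% were called, 29.7% lower and 31.2% higher, and the median log2 difference was -0.15 for the 48 genes and -0.0015 for all genes. The largest difference was that of *SEH1L* (-0.71, SE 0.056, adjusted *p* = 1.62e-10), followed by *TNPO3* (0.68, SE 0.05, adjusted *p* = 6.12e-11), *KPNA5* (0.53, adjusted *p* = 5.54e-07), *NUP35* (-0.50, adjusted *p* = 3.95e-07) and *NUP155* (-0.47, adjusted *p* = 3.51e-07), leaving aside *NUP62CL*, which was not called (-0.79, SE 0.4, adjusted *p* = 0.0909). *IPO7* was higher with si025 by nearly the same amount (0.47, adjusted *p* = 5.09e-09). By role, 5 of 7 outer ring and 4 of 5 inner ring genes were lower with si025 than with si033, as were 5 of 11 importin beta family members. Of the 5 central channel genes 2 were called, *NUP54* (0.14) and *NUP58* (0.27), both higher with si025, although the *NUP54* call was lost in DESeq2 and in 9 of the other alternatives, 6 of which left out 1 library. *NUP188* was called higher with si025 (0.11, adjusted *p* = 0.0429), and 13 of the 18 alternatives lost that call.

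The siRNA strands listed by the study are shown because some differences between the siRNAs were gene by gene. Capitals mark bases 12 to 18 of the listed strand, which pair with bases 2 to 8 of the opposite strand, the seed through which an siRNA can act on other transcripts. Which of the numbered duplexes is si025 and which is si033 is not given in the sources used here, nor is it stated that these duplexes, or this control, are those of the RNA-seq.
siRNA negative control: uagcgacuaaaCACAUCAa
IGF1R-AS1-siRNA-1#: agaaagcacugAAGACCUauu
IGF1R-AS1-siRNA-2#: ccguauugcucAGUGGAAauu
These 7-base words, written as DNA, were searched on the sense strand of the longest annotated 3′ UTR (GENCODE v44) of 12087 tested genes, including all 48. CACATCA stood in 9 of the 48 (18.8%, against 12.6% of genes), namely *RAN*, *NUP54*, *NUP62CL*, *KPNA5*, *TNPO1*, *TNPO3*, *NUP93*, *TPR* and *NUP43*. AAGACCT stood in 5 (10.4%, against 12.4%), namely *NUP88*, *KPNA2*, *IPO9*, *KPNB1* and *NUP133*. AGTGGAA stood in 4 (8.33%, against 17.1%), namely *KPNA5*, *KPNB1*, *TNPO1* and *NUP93*. Of the 5 genes with the largest called differences between the siRNAs, *SEH1L*, *NUP35* and *NUP155* held none of the 3 words. *TNPO3* held only that of the control siRNA, and *KPNA5* held 1 copy of that word and 2 copies of AGTGGAA. *IPO7*, with nearly the same difference as *NUP155*, held none. Over all genes, those that held CACATCA had median log2 fold changes of 0.16 with si025 and 0.11 with si033, against 0.01 and -0.01 without it. Among the 48 the medians were -0.21 and -0.11 with the word and -0.35 and -0.22 without it. For AAGACCT the medians of the 48 were -0.35 and -0.15 with the word against -0.33 and -0.22 without it, and for AGTGGAA they were -0.27 and -0.03 against -0.33 and -0.22. Over all genes the AAGACCT medians were -0.01 and 0.001 with the word against 0.02 and 0.002 without it. Those for AGTGGAA were 0.03 and 0.008 against 0.02 and 0.001. These matches describe letters only and take no account of 3′ UTR length. The part of seed pairing in the results was not tested.

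The genes were also split by the promoter word CACGTG. Of the 9 genes whose promoters held it, 7 were called lower with si025 and 7 with si033, and their median log2 fold changes were -0.30 and -0.21. Of the 35 genes with a promoter but without the word, 33 were called lower with si025 and 26 with si033, with medians of -0.35 and -0.25. *MYC* itself averaged 444 ± 11.5 CPM in the control, 258 ± 11.5 with si025 and 310 ± 9.13 with si033, and its part in these results was not tested.

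A list of 49 other genes of nuclear transport was counted in the same way. It held pore components outside the naming rule, Ran regulators, further exportins, mRNA export factors, cargo adaptors, SUMO proteases and the lamina. Of 48 tested, 27 fell and 3 rose with si025, and 21 fell and 2 rose with si033, with median log2 fold changes of -0.17 and -0.11. In all 62.5% of them were called with si025 and 47.9% with si033, near to or below the 61.7% and 54.8% of all genes tested. The shares called lower were 56.2% and 43.8%, against 28.8% and 27.8% of all genes. Among the 6 pore components of the list, 5 fell with si025 and 5 with si033. The other, *SEC13*, was called with neither (0.09, adjusted *p* = 0.103, and -0.08, adjusted *p* = 0.173). Among the 20 tested mRNA export genes 6 fell with si025 and 8 with si033. *LMNB1*, which encodes lamin B1, went from 381, 394 and 402 CPM in the control to 204, 205 and 214 with si025 and 284, 297 and 295 with si033 (-0.92, adjusted *p* = 1.72e-14, and -0.43, adjusted *p* = 8.99e-09). The mRNA export adaptor *ALYREF* fell by 0.88 and 0.35, and *THOC6*, a subunit of the THO complex, by 0.67 and 0.49. The only 1 to rise with both was *NMD3*, the adaptor that exports the large ribosomal subunit with exportin 1. *NMD3* had 40.8, 39.8 and 43.5 CPM in the control, 73.4, 73.1 and 80.6 with si025 and 76.4, 84.6 and 77 with si033. Its log2 fold changes were 0.87 (SE 0.06, adjusted *p* = 1.8e-11) and 0.93 (SE 0.06, adjusted *p* = 8.32e-12). Between the siRNAs 14 of the 48 (29.2%) were lower and 10 (20.8%) higher with si025, against 29.7% and 31.2% of all genes, with a median of -0.05. *NUPL2*, an older symbol of the cytoplasmic nucleoporin NUP42, did not match the naming rule and fell by 0.24 (adjusted *p* = 0.00165) and 0.25 (adjusted *p* = 0.00180).

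Proliferation markers moved in the same direction as the pore genes. Their summed level over 10 genes was 2915 to 3062 CPM in the control, 1882 to 1948 with si025 and 2249 to 2360 with si033, and the groups did not overlap. All 10 fell with si025, while 8 fell and *AURKA* rose with si033. For example, *MKI67* averaged 529, 272 and 412 CPM in the control, si025 and si033 groups. In these bulk libraries fewer cycling cells and less RNA per cell cannot be told apart, and the part of proliferation in the fall of the pore genes was not tested.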

How the data were processed

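RNA from VCaP cells in 3 groups of 3 libraries (1.3 µg of total RNA each, stranded total RNA preparation) was analysed. Groups came from the sample titles. In every group the file header of the library titled replicate 3 carries the number 4, so the numbers of the titles and the headers mark the same libraries across groups. The labels name a Promega extraction kit and the methods of the study a Qiagen kit.

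The authors aligned reads to hg38 with HISAT2 (2.1.0 per the submitters' processing notes) and made the deposited counts with featureCounts 1.5.2, per the file headers over exons summed by symbol and with strand. The headers name a RefSeq annotation and the methods GENCODE. The deposited counts are raw whole numbers for 19918 genes. Reads with several alignments are left out under the program's defaults, so genes with near-identical copies are uncertain. *IGF1R-AS1* itself was not analysed here, and its knockdown was not checked. *HIKESHI* was matched by its older symbol *C11orf73*.

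The counts were tested with edgeR 4.0.16 in R 4.3.3 (quasi-likelihood test, TMM normalisation, default expression filter, 12810 genes, all 9 libraries in 1 fit without covariates). The Benjamini-Hochberg adjustment ran over every tested gene, with a threshold of 0.05. Each standard error (SE) is the log2 fold change divided by the root of its F statistic. The biological coefficient of variation was 4.13%. Library totals differed by up to 2.45 times. Between replicates, chi-square per degree of freedom was 1.72 to 5.09, highest for pairs with si025 replicate 2, so none was counted as a duplicate. On simulated counts for si025 against control over 12810 genes, 50.7% of genes changed 1.2 times, 89.6% of those changed 1.5 times and 97.0% of those changed 2 times were recovered. Only 67, 67 and 66 genes were changed by these folds, whereas 61.7% of genes were called in the data. The adjustment was therefore stricter in the simulation, and its shares do not carry over to the data. The 18 alternatives were RLE and upper quartile factors, no or a stricter filter (5 CPM in 3 libraries), a replicate block, a test against a fold of 1.2 (glmTreat), gene length offsets, a fit of the 2 groups compared, leaving out each library, and DESeq2 1.42.0.

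Values per library are given for the Ran cycle, exportins, importin alphas, up to 6 genes at either end of the mean fold change among those called alike with both siRNAs, genes called in opposite directions and the 5 with the largest called difference between siRNAs, and for up to 3 other transport genes at either end. Further genes in the plots and means were chosen after their values were seen. Members and lists were chosen with earlier results of these data known.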

Additional observations from a re-analysis of the deposited data

Results flagged for a closer look

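The effects of si025 and si033 against the shared control differed for 32 of the 48 tested genes in edgeR's quasi-likelihood test of si025 minus si033, at adjusted *p* under 0.05. That share of 66.7% was near the 60.9% called among all 12810 genes tested. All values in this part are log2 differences, si025 minus si033, with 3 libraries in each group.

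Among transport receptors lower with si025 were *IPO5* (-0.42), *KPNA1* (-0.38), *KPNB1* (-0.34), *XPO1* (-0.29), *IPO9* (-0.26), *TNPO1* (-0.23), *IPO4* (-0.21) and *KPNA2* (-0.20). Of the Ran cycle, *RCC1* (-0.35) and *RAN* (-0.18) were lower with si025. The receptors higher with si025 were *TNPO3* (0.68), *KPNA5* (0.53), *IPO7* (0.47), *KPNA3* (0.25) and *KPNA6* (0.22).

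In the scaffold, *SEH1L* (-0.71), *NUP35* (-0.50), *NUP155* (-0.47), *NUP85* (-0.36), *NUP93* (-0.36), *NUP205* (-0.34), *NUP107* (-0.28), *NUP43* (-0.28) and *NUP160* (-0.15) were lower with si025. *NUP43* was nevertheless above the control with both siRNAs. *NUP188* (0.11) was the 1 scaffold gene called higher with si025.

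At the membrane and the periphery, *NDC1* (-0.30), *NUP210* (-0.26), *NUP88* (-0.25) and *NUP153* (-0.18) were lower with si025, and *RANBP2* (0.18) was higher. In the channel *NUP58* (0.27) and *NUP54* (0.14) were higher with si025. The libraries of the siRNAs overlapped for *NUP54*, *NUP153* and *TNPO1* despite the calls. The call of *NUP160* was lost when replicate 1 or 2 of si025 or replicate 3 of si033 was left out, and that of *NUP153* without replicate 2 of si025 or replicate 3 of si033.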

How the results depend on the processing

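Requiring a fold above 1.2 (glmTreat) lowered the counts, since by construction it sets aside smaller changes. It called 23 of 48 genes with si025 (21 lower), 12 with si033 (11 lower, 1 higher) and 11 between the siRNAs (8 lower, 3 higher), and 5 were lower and 0 higher with both siRNAs. Of all 12810 genes it called 3891, 2917 and 3686. Among the other transport genes it called 11 (9 lower), 10 (9 lower, 1 higher) and 7 (5 lower, 2 higher).

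Leaving out 1 library at a time gave 40 to 45 called genes with si025, 34 to 37 with si033 and 29 to 34 between the siRNAs. Genes higher with si033 numbered 2 to 4 (2 without si033 replicate 3) and the other transport genes higher with si033 numbered 1 to 3 (1 without si033 replicate 3). In joint counts added after seeing the data, 26 to 31 genes were lower and 1 to 2 higher with both siRNAs (1 without control replicate 2). The other alternatives kept these counts within 1.5 times.

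Reversed signs concerned only values that were not called before or after, and the cause was not tested. Under length offsets *KPNA3* with si025 was -0.014, *NUP88* with si033 -0.0024 and *TPR* between the siRNAs -0.039. *IPO5* with si033 was 0.021 with upper quartile factors and 0.012 with the 5 CPM filter, under which *TPR* between the siRNAs was -0.0026. Leaving out 1 library gave ranges that crossed 0. With si033 they were -0.013 to 0.035 for *NUP88*, -0.077 to 0.013 for *XPO1*, -0.034 to 0.053 for *KPNA4* and -0.043 to 0.025 for *IPO5*. Between the siRNAs they were -0.069 to 0.010 for *CSE1L* and -0.020 to 0.067 for *TPR*.

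The replicate numbers gave no pairing: deviations of same-numbered libraries correlated at -0.02 to 0.07. With the replicate block 44, 37 and 33 genes were called in the 3 comparisons, 30 lower and 2 higher with both siRNAs. Depth limits *NUP62CL*. Changes of 1.2 times were recovered in 50.7% of simulated cases, but far fewer genes changed in the simulation than were called in the data.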
